A study of Mus musculus with 3 samples.

Results

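The genes described here are 8 regulators of blood stem cell emergence, Runx1, Gata2, Myb, Meis1, Lyl1, Cbfa2t3, Mecom and Cbfb, measured by array in mouse embryos. The members are a list of names, chosen with earlier results of these data known. Their probes are all non-control probes that carry a member's name in the deposited gene table or a member's RefSeq accession in the array files. That rule found 13 of 55681 probes. Of these, 10 passed the filter on dim probes, with at least 1 for every member, so 8 of the 23554 genes tested are members. Of the 23554, 15380 carry a gene name, and the others are array identifiers that were each counted as a gene. Whole E8.75 embryos were compared, wild-type in the Cy3 channel and Brpf1-deficient in the Cy5 channel of each array, in 3 pairs. The labels name no allele, strain or promoter, record no treatment, and leave it unstated if embryos were pooled for an RNA. Nothing in them ties the 3 pairs to separate litters, so p-values here reflect only how these pairs vary, which may be technical. Since no array reverses the dyes, a dye effect and a genotype effect cannot be told apart. In whole embryos fewer cells of a type and less RNA per cell cannot be told apart either.

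Blood arises in waves. Primitive red cells and macrophages form first in the yolk sac, and later waves bud from haemogenic endothelium, flat vessel cells that round up and leave the wall. RUNX1 bound to its partner CBFB drives that switch, GATA2 and the bHLH factor LYL1 act with TAL1 and LMO2 on shared enhancers, and the corepressor CBFA2T3 (ETO2) joins TAL1 and GATA complexes. MYB is needed for definitive but not primitive blood, and MEIS1 and MECOM (EVI1) maintain stem cells.

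Several members are transcribed from more than 1 start, and their probes differ in what they can separate. RefSeq promoter windows of the GRCm38.p6 build, each of 300 bases from 250 before the start to its first 50, were found for all 8 genes, 12 windows in all. Runx1 has a distal and a proximal start, and both of its probes list all 4 Runx1 transcripts in the deposited table, so neither probe tells the starts apart. The 2 Runx1 windows are shown because they differ in sequence content, with matches to the RUNX motif in capitals (TGTGGT or else its variant TGCGGT, on both strands). The distal window is chr16:92826025-92826324 and the proximal one chr16:92697280-92697579, both on the minus strand.
Runx1 distal: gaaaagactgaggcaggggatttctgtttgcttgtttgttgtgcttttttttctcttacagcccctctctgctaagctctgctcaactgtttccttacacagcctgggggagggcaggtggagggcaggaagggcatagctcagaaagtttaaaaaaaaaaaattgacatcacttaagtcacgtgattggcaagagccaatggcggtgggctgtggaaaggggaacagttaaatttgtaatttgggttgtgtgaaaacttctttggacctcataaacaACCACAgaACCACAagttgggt
Runx1 proximal: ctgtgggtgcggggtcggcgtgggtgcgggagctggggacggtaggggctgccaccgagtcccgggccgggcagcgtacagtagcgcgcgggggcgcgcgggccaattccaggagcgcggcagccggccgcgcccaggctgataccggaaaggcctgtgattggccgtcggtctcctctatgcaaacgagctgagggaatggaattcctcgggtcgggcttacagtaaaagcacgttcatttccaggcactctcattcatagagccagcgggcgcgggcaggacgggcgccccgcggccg
The distal window held 2 RUNX matches, beginning 28 and 36 bases after the start, 45% G and C, and 2 CpG dinucleotides. The proximal window held no match, 69% G and C and 35 CpG dinucleotides, against medians of 52.7% and 7 over all 32851 windows of this length.

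For Mecom the longer MDS1-EVI1 form and the shorter EVI1 form start far apart, and its 3 probes carry 3 different transcript accessions. Its windows are shown with matches to the GATA motif in capitals (AGATAA as well as AGATAG, and each of these with T as its first letter, on both strands). They lie at chr3:30509710-30510009 and chr3:30013155-30013454, on the minus strand.
Mecom distal: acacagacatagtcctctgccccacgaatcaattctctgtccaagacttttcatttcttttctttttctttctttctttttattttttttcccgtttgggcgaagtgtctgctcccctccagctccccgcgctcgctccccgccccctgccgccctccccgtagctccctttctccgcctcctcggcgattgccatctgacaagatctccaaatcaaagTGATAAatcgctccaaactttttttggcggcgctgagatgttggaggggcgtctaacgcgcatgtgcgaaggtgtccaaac
Mecom proximal: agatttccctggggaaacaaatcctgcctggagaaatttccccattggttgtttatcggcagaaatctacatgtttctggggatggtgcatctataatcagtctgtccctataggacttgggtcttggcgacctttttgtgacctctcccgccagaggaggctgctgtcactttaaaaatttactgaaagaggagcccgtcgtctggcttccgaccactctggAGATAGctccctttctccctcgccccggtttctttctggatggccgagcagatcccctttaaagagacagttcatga
A single GATA match began 31 bases before the distal start and another 27 bases before the proximal one. The last window shown is that of the outer Cbfa2t3 start, chr8:122699060-122699359 on the minus strand, because RUNX and GATA matches lie side by side there, 124 and 118 bases before the start.
Cbfa2t3 distal: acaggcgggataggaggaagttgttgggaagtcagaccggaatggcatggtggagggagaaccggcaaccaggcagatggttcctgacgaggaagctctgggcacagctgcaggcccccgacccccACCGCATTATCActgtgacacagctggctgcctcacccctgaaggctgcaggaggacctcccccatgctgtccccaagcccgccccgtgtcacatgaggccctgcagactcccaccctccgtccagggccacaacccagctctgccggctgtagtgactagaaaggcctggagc
RUNX matches were present in 3 of the 12 member windows and GATA matches in 3, against 22.4% and 29.8% of all 32851 windows. MEIS (TGACAG) was found in 1, MYB (AACNGNC) in 2 and the E-box (CANNTG) in 8 of the 12, against 19.2%, 32.8% and 72.3%. These letters are matches only, and the arrays measured no binding.

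As a check of the labels, Brpf1 was brighter in the channel labelled Brpf1-deficient. Its log2 ratios were 2.01, 1.43 and 1.06 in pairs 1, 2 and 3 (mean 1.50 ± 0.19, SE of the limma fit, n = 3, limma adjusted p = 0.0405). The mean stayed between 1.25 and 1.72 over 10 alternatives, but the call was lost in 6 of them, with adjusted p-values of 0.273 with a loess span of 0.02, 0.237 with processed signals, 0.0550 with the mean of kept probes, and 0.200, 0.102 and 0.105 without pairs 1, 2 and 3. Its 1 probe was not placed relative to the disrupted part of the gene, and if it lies outside that part it checks nothing. Whether the channel labels are the right way round was not tested, and with swapped labels every direction by genotype would reverse. Directions below are therefore those of the channels as labelled, as log2 ratios of Cy5 over Cy3. They run opposite to the sign in the authors' deposited table, which does not state its direction. The median intensity over all non-control spots was 142.5 to 155.5 in Cy3 and 234 to 257 in Cy5. Between 49.4% and 59.8% of probes were well above background in a channel of an array, and no member spot was saturated. All 12 genes of the embryo marker list, among them Sox2, T, Pax3 and Myh6, were detected. Their median ratio was -0.03, with 6 means above 0 and 6 below. Myh6 had -0.72, -0.65 and -0.73 in pairs 1, 2 and 3 and was the only one with a limma adjusted p below 0.05 (0.0313).

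None of the 8 members passed the threshold over all genes in limma, where 1.38% of the 23554 genes did (1.29% higher and 0.0934% lower in Cy5). At an unadjusted p below 0.05 there was 1 member, Myb, on the lower side, against 17.3% of all genes (8.23% higher and 9.12% lower). The means ran from 0.30 ± 0.19 (SE, n = 3 pairs) for Gata2 through 0.27 ± 0.26 for Mecom, 0.26 ± 0.15 for Cbfa2t3, 0.11 ± 0.12 for Runx1, -0.08 ± 0.09 for Meis1, -0.12 ± 0.10 for Cbfb and -0.16 ± 0.20 for Lyl1 to -0.24 ± 0.08 for Myb. Neighbours in that order differed by less than the larger of their SEs, except Runx1 and Meis1. Each SE in the text is that of the limma fit, which draws a gene's spread over pairs toward that of all genes. It is smaller than a plain SE of the 3 pairs for Mecom, Lyl1, Gata2, Cbfa2t3 and Runx1, and larger for Myb and Meis1. Of the members 4 lay above 0 and 4 below, with a median of 0.01 against -0.02 over all genes. Over all 23554 genes 10743 lay above 0 and 12811 below. Only 1 member, Myb again, had the same sign in all 3 pairs, against 43.4% of all genes (19.7% higher and 23.8% lower). An exact sign-flip test on 3 pairs cannot go below a two-sided p of 0.25, so no single-gene exact test is given.

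**Figure D1:**
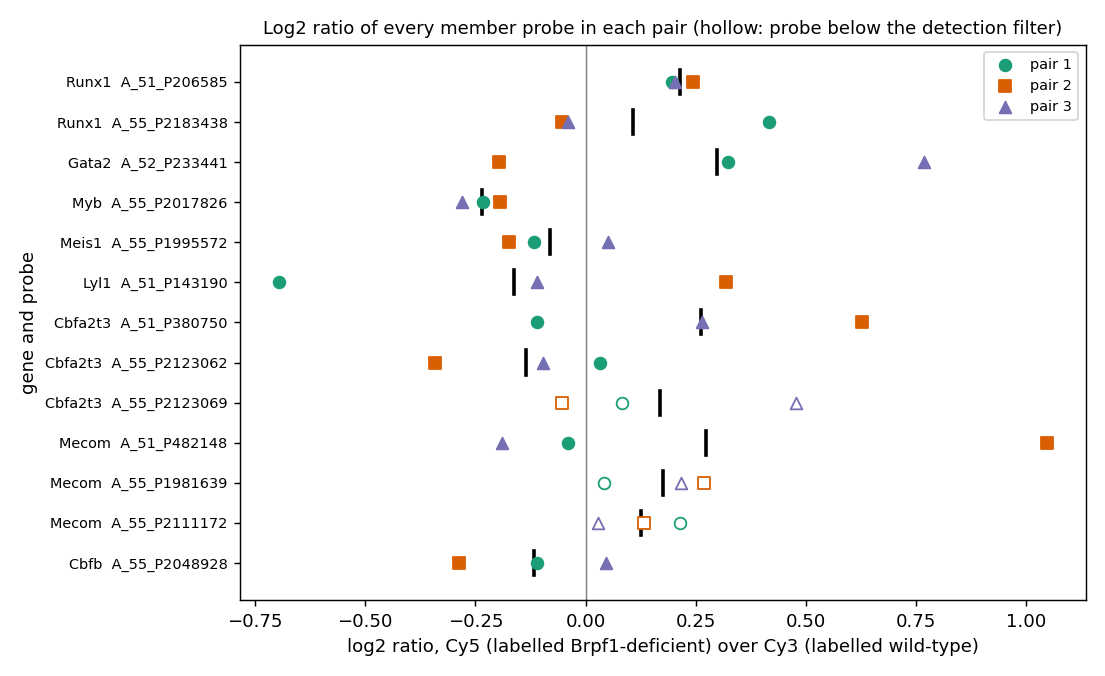
Log2 ratio of Cy5 (labelled Brpf1-deficient) over Cy3 (labelled wild-type) for each of the 13 member probes, 1 point per pair, with a vertical bar at the mean of the 3 pairs. Hollow points mark the 3 probes that did not pass the filter on dim probes. The 3 Myb points lie between -0.28 and -0.19, while those of Mecom probe A_51_P482148 run from -0.19 to 1.05.

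Runx1, the DNA-binding subunit of core binding factor, was read by 2 probes that were well above background in both channels of all arrays. Probe A_55_P2183438, the brighter one, had median spot intensities of 656, 393 and 546 in Cy3 and 1443, 549.5 and 833 in Cy5 in pairs 1, 2 and 3. Its log2 ratios were 0.42, -0.05 and -0.04, so pair 1 stood above 0 and the other pairs lay close to it (mean 0.11 ± 0.12, SE; limma adjusted p = 0.669). Probe A_51_P206585 had 637.5, 292 and 484 in Cy3 and 1207.5, 475 and 882.5 in Cy5. Ratios of that second probe were 0.20, 0.24 and 0.20, all above 0 (mean 0.21 ± 0.08, SE; adjusted p = 0.295 in limma over all 31598 kept probes, unadjusted p = 0.0411). Both probe means are above 0, but only the second has the same sign in all pairs. Without pair 1 the mean of the brighter probe was -0.05 (adjusted p = 0.921). With processed signals A_51_P206585 was the brighter one and stood for the gene, at 0.28 (adjusted p = 0.305), so the range for the gene over all alternatives, 0.305 to 0.947, spans both probes. The authors' deposited table, turned to Cy5 over Cy3, lists 0.17 and 0.32 for these probes (adjusted p = 0.632 and 0.463).

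Cbfb encodes the subunit that stabilises RUNX proteins on DNA and does not bind DNA itself. It had 1 probe, with intensities of 32303, 45572 and 29856 in Cy3 and 69430, 55882.5 and 61868 in Cy5. Log2 ratios were -0.11, -0.29 and 0.05 (mean -0.12 ± 0.10, SE; limma adjusted p = 0.557), so pair 3 lay on the other side of 0. This probe is among the brighter ones on the arrays, and genes within 0.5 of its mean log2 intensity had a median ratio of -0.07. Its mean was 0.15 with median centring in place of loess (adjusted p = 0.788), and -0.04 with a loess span of 0.02. The 2 subunits of core binding factor, Runx1 and Cbfb, thus lay on opposite sides of 0 by amounts of the size of their errors.

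Gata2, a zinc finger factor that haemogenic endothelium and blood progenitors need, read 2176.5, 1849 and 1276 in Cy3, and in Cy5 4642.5, 1826 and 3483.5. Its log2 ratios of 0.32, -0.20 and 0.77 put pairs 1 and 3 above 0 and pair 2 below. The mean of 0.30 ± 0.19 (SE; limma adjusted p = 0.456) was the largest among the members and corresponds to 1.23-fold. The SD over pairs was 0.48, larger than that of 91.5% of the genes within 0.5 of its mean log2 intensity. Without pair 2 the mean was 0.55 and without pair 3 it was 0.06, with adjusted p-values over all alternatives between 0.203 and 0.872. The endothelial markers (10 of 10 detected) had median ratios of -0.15, 0.03 and 0.29 in pairs 1, 2 and 3, with a summed normalized intensity of 72757 to 85690 in Cy3 and 76801 to 89394 in Cy5. The decidua and maternal markers (10 of 10) had -0.31, -0.44 and 0.43, with sums of 100347 to 134275 in Cy3 and 84105 to 125062 in Cy5. Genes of the decidua list disagreed, as Prl8a2 had -0.74, -3.55 and 0.60 and Igfbp1 0.57, 0.80 and 1.15. Whether that list reads maternal tissue alone was not tested. The medians of the endothelial and decidua lists were both highest in pair 3, as Gata2 was, but below 0 in pair 1, where Gata2 was above. The macrophage and megakaryocyte medians, given below, were highest in pair 3 too, so this trait is not particular to those lists. The part of these tissues in the Gata2 ratios was not tested.

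Lyl1, a bHLH factor related to TAL1, was the member lowest in any pair. Its intensities were 6011, 2977 and 3689 in Cy3 and 6565, 4148 and 5563 in Cy5. Log2 ratios were -0.70, 0.32 and -0.11 (mean -0.16 ± 0.20, SE; limma adjusted p = 0.692), so pair 1 lay far below the other pairs. Cy3 was brightest in pair 1 and dimmest in pair 2. Its SD of 0.51 exceeded that of 95.5% of genes of like brightness, and without pair 1 the mean changed sign to 0.10 (adjusted p = 0.850; the range over its alternatives was 0.337 to 0.850).

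Cbfa2t3, the ETO-family corepressor, was read by 3 probes that disagreed. The brightest, A_51_P380750, had intensities of 725, 459.5 and 638 in Cy3 and 1098.5, 899.5 and 1216 in Cy5. Its log2 ratios were -0.11, 0.63 and 0.27 (mean 0.26 ± 0.15, SE; limma adjusted p = 0.427), highest in pair 2. Probe A_55_P2123062, at 108.5 to 136 in Cy3, had 0.03, -0.34 and -0.10. It passed the filter only through Cy3, where it was well above background on 2 arrays, against none in Cy5, so its mean below 0 was favoured by the filter and is given as a description. The measured means of that probe were 7.33 in Cy3 and 7.19 in Cy5 on the normalized log2 scale, and it had an adjusted p of 0.539 in limma over all kept probes. Probe A_55_P2123069 did not pass the filter, with 0.08, -0.05 and 0.48. The mean of the 2 kept probes was 0.06, against 0.26 for the brightest alone.

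Lyl1 and the brightest Cbfa2t3 probe were both lowest in pair 1 and highest in pair 2, while both other Cbfa2t3 probes were lowest in pair 2. Primitive erythroid markers, of which 11 of 12 were measured, had median ratios of -0.52, 0.68 and 0.16 in pairs 1, 2 and 3. Their summed normalized intensity ran from 333640 to 1181676 in Cy3 and from 671051 to 1186402 in Cy5. Of that list only Ahsp had no measured probe. Hbb-bh1, an embryonic globin named after its values were seen, went against the median in pair 1, with 0.83, 1.58 and 1.42 (limma adjusted p = 0.0419). It was the only gene of the list that passed the threshold, and every other measured gene of the list was below 0 in pair 1. Hbb-y, another embryonic globin, had -1.62, 1.08 and 1.83 (limma adjusted p = 0.759). Megakaryocyte markers (7 of 10 measured) had medians of -0.53, -0.09 and 0.12, and sums of 2618 to 4347 in Cy3 and 3117 to 3876 in Cy5. Clec1b of that list, the platelet receptor CLEC-2, also named after its values were seen, had 0.78, 0.56 and 0.62 (limma adjusted p = 0.0460). No gene passed with a loess span of 0.02, with processed signals or with any 1 pair left out, so the Hbb-bh1, Clec1b and Myh6 calls were lost there. Nor did any pass with the genes above a mean log2 intensity of 17 left out, of which Hbb-bh1 (17.60) is 1. The part of red cell and platelet-lineage RNA in the Lyl1 and Cbfa2t3 ratios was not tested.

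Myb, a transcription factor of definitive progenitors, varied least among the probes that stood for a member. Runx1 probe A_51_P206585, which did not stand for its gene, varied less (SD 0.025 over pairs). The intensities of the 1 Myb probe were 798, 732 and 625.5 in Cy3 and 1114, 777 and 806.5 in Cy5. Log2 ratios were -0.23, -0.19 and -0.28, all below 0, with a mean of -0.24 ± 0.08 (SE; unadjusted p = 0.0287, limma adjusted p = 0.245), a 1.18-fold difference. An SD of 0.04 over pairs was smaller than that of most genes of like brightness, only 4.16% of which had an SD as small or smaller. Spots of 1 probe within an array, for 60 repeated probes of similar brightness, had a median SD of 0.09. The mean stayed between -0.35 and -0.20 over 11 alternatives, with adjusted p-values from 0.215 to 0.640. The authors' deposited table lists Myb at -0.23 once turned (adjusted p = 0.519). Macrophage markers, of which 6 of 10 were measured, had medians of -0.27, -0.05 and 0.01, and sums of 3160 to 4263 in Cy3 and 2837 to 4823 in Cy5. Those not measured were Cx3cr1, C1qa, Cd68 and Fcgr1, and the part of macrophages in the Myb ratio was not tested.

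Meis1, a TALE homeobox factor that binds DNA with PBX and HOX proteins, lay nearest to 0. Intensities of 14892.5, 22319 and 13319 in Cy3 and 27741, 25946 and 24805 in Cy5 gave log2 ratios of -0.12, -0.17 and 0.05. The mean of -0.08 ± 0.09 (SE; limma adjusted p = 0.654) equalled the median of -0.08 over the genes of like brightness. It was 0.01 with median centring and 0.01 with processed signals (adjusted p = 0.994 and 0.969).

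Mecom, a zinc finger regulator of stem cell maintenance, was close to background. Probe A_51_P482148, the only one of 3 that passed the filter, had 78.5, 99 and 99.5 in Cy3 and 135.5, 367 and 139.5 in Cy5. It passed through Cy3, where it was well above background in pairs 2 and 3, while Cy5 was so in pair 2 alone. Its log2 ratios of -0.04, 1.05 and -0.19 set pair 2 apart from the others (mean 0.27 ± 0.26, SE; limma adjusted p = 0.603). The SD of 0.67 was larger than that of 99.0% of genes of like brightness, and without pair 2 the mean was -0.11 (adjusted p = 0.577; the range over its alternatives was 0.438 to 0.905). Spots of 1 probe within an array had a median SD of 0.15 at a mean log2 intensity below 8, over 124 probes. The other 2 probes, A_55_P2111172 and A_55_P1981639, the latter named by an Ensembl transcript, were not well above background in either channel of any array. Their ratios lay between 0.03 and 0.27. For A_55_P1981639 the authors' deposited table, turned, lists -0.14, on the other side of 0 from the mean of 0.17 computed here.

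**Figure D2:**
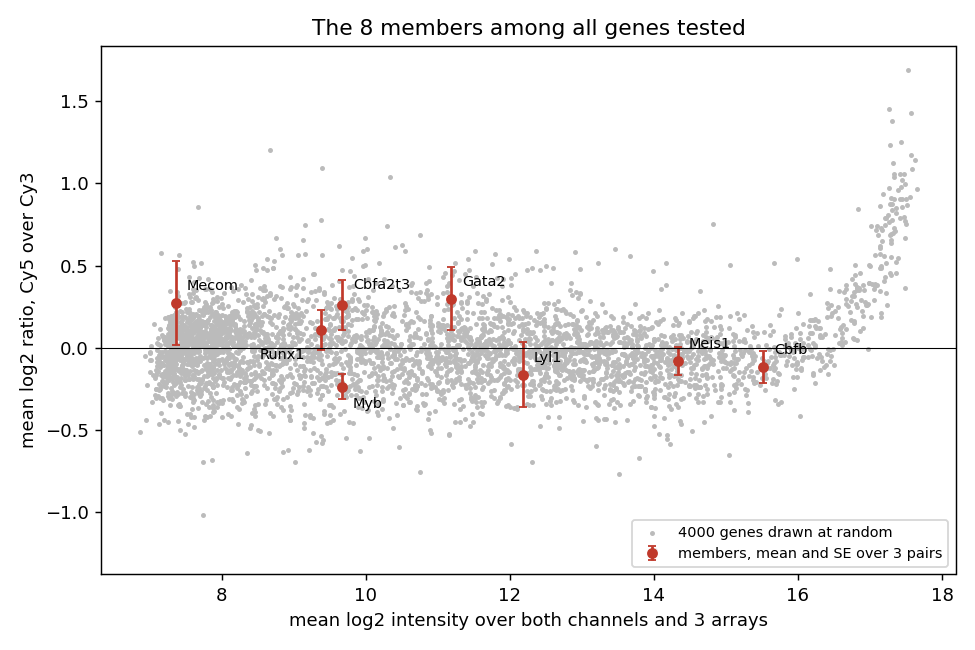
Mean log2 ratio of Cy5 over Cy3 (vertical axis) against mean log2 intensity over both channels and 3 arrays (horizontal axis). The 8 members are shown with the SE of the limma fit over 3 pairs, and 4000 genes drawn at random are in grey. The members lie between -0.24 and 0.30 and the error bar of Mecom is the longest.

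The members did not share 1 pattern over the pairs. The closest members were Meis1 and Cbfb, whose 3 ratios lay 0.11 apart (Euclidean distance on the log2 scale, over 3 pairs), followed by Myb and Meis1 at 0.35. Among 60 measured pathway genes, those nearest to Myb were Ptprc, the leukocyte antigen CD45, at 0.04 and Adgrg1, a receptor of emerging stem cells also known as GPR56, at 0.21. Ptprc had -0.25, -0.16 and -0.27, but its probe was dim (mean log2 intensity 7.07, below the 7.37 of Mecom) and not well above background in both channels on all arrays, so its rank as nearest is weakly supported. Nearest to Lyl1 were Itga2b, the early blood integrin CD41 (0.21), with -0.53, 0.19 and -0.10, and Hoxa9 (0.24), of which another probe lay on the other side of 0 at 0.24. For Cbfa2t3 they were Cd34 (0.25) and Gfi1 (0.34, dim in the same way), for Runx1 Sox17 (0.24) and Hlf (0.26), and for Cbfb Ldb1 (0.11) and Prdm16 (0.12, also dim). Meis1 lay nearest to Cbfa2t2 (0.15) and Adgrg1 (0.15). For Gata2 the nearest were Sox7 (0.52) and Eng (0.54), and for Mecom Cd44 (0.37) and Gata1 (0.56), all further away. Probes of Cd44 lay on both sides of 0, at -0.19 and 0.18. With 3 pairs, these distances are a description of likeness and carry no test.

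Other genes of the pathway were taken from 5 lists. Of their 60 measured genes 0 passed in limma over all genes, where 1.38% of all did, and 7 had an unadjusted p below 0.05 against 17.3% of all. The same sign in all 3 pairs was found in 18 of 60, 6 higher and 12 lower, against 43.4% of all genes.

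Partners in haematopoietic transcription factor complexes, 9 of 10 measured with Spi1 not passing the filter, had a median of -0.16. Of these 7 lay below 0, against 12811 of all 23554 genes. Tcf12, an E-protein that pairs with TAL1 and LYL1, had log2 ratios of -0.47, -0.58 and -0.34 (mean -0.46 ± 0.09, SE; limma adjusted p = 0.116), and its other probe had a mean of -0.15. The E-protein gene Tcf3 had -0.27, -0.47 and -0.08 (mean -0.27 ± 0.10, adjusted p = 0.282). Its mean was -0.010 with median centring (adjusted p = 0.989) and -0.17 without pair 2. Tal1, the bHLH factor that specifies blood, had -0.60, -0.07 and -0.14 (mean -0.27 ± 0.13, adjusted p = 0.354), lowest in pair 1 as Lyl1 was. All 3 were below 0 in every pair, and none of them passed the threshold. They were named for the smallest p-values of the list, a choice that favours genes with the same sign in all pairs.

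Paralogues of the members, 9 of 10 measured with Runx2 not passing the filter, had a median of -0.04. Mybl2, the cell cycle relative of Myb, had 0.18, 0.22 and 0.15 (mean 0.18 ± 0.08, SE; limma adjusted p = 0.315), above 0 where Myb was below, although its other probe had a mean of -0.02. Meis3 had -0.18 ± 0.10 (adjusted p = 0.405) and Prdm16, the closest relative of Mecom, -0.17 ± 0.10 (adjusted p = 0.423).

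Of 8 measured Hox and Pbx partners 6 lay below 0, against 12811 of all 23554 genes, with a median of -0.05. Pbx4 had -0.46, -0.45 and -0.62 (mean -0.51 ± 0.08, SE; limma adjusted p = 0.0815), the smallest adjusted p among the pathway genes. Pbx2 had -0.23 ± 0.11 (adjusted p = 0.343). Hoxa10 had 0.10, 0.16 and 1.25 (mean 0.51 ± 0.25, adjusted p = 0.356), so pair 3 alone was far from 0.

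Genes of the endothelial-to-haematopoietic switch (18 of 18 measured) had a median of -0.10, and of -0.25, 0.06 and -0.01 in pairs 1, 2 and 3. Angpt1, a ligand of the TEK receptor, had -0.61, -0.71 and -0.23 (mean -0.51 ± 0.12, SE; limma adjusted p = 0.166). Ptprc, close to background, had a mean of -0.23 ± 0.08 (adjusted p = 0.258), which was -0.67 with processed signals and -0.18 without background correction. Csf1r, the macrophage growth factor receptor, had -0.34 ± 0.13 (adjusted p = 0.292), and its 3 probes reached from -0.34 to 0.13. Among 16 of 16 measured genes of haemogenic endothelium the median was 0.04. The Notch ligand Dll4 had 0.35, 0.24 and 0.38 (mean 0.32 ± 0.08, adjusted p = 0.180), the receptor Tie1 0.13, 0.34 and 0.34 (mean 0.27 ± 0.09, adjusted p = 0.239) and Notch1 -0.52, 0.09 and -0.68 (mean -0.37 ± 0.16, adjusted p = 0.330). Ligand and receptor, Dll4 and Notch1, thus had means on opposite sides of 0.

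**Figure D3:**
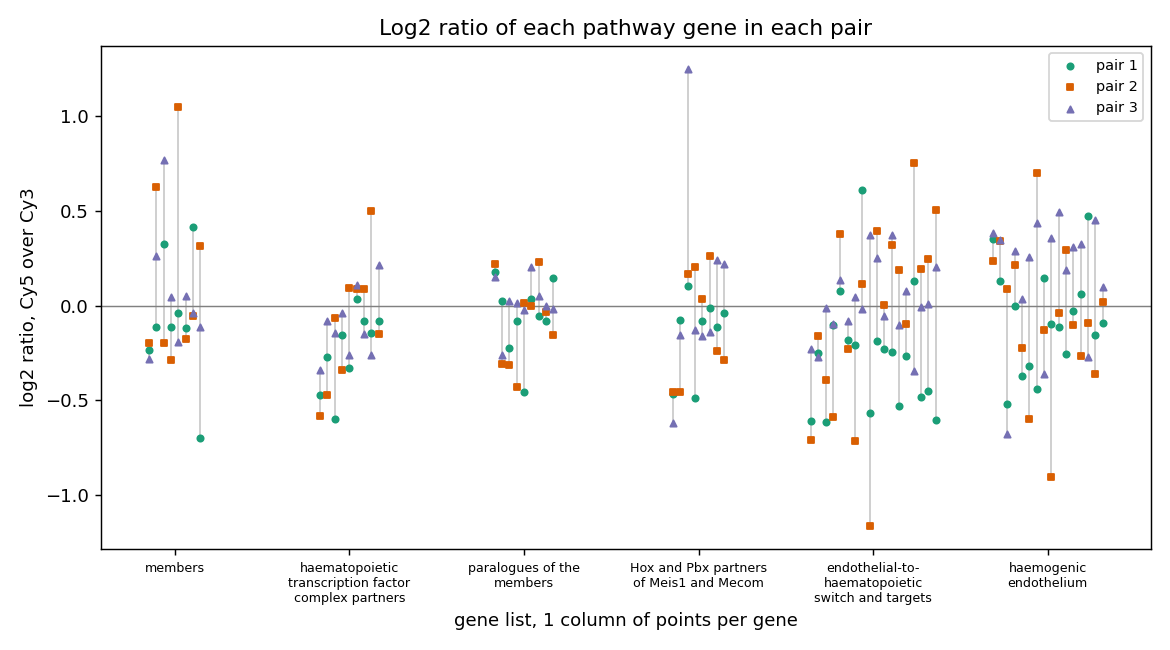
Log2 ratio of Cy5 over Cy3 for each member and each measured gene of the 5 pathway lists, 1 column per gene with 1 point per pair joined by a grey line. In most columns the 3 pairs lie on both sides of 0, as they do for 7 of the 8 members.

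Markers of other tissues moved differently between the pairs. Visceral endoderm and yolk sac markers, 12 of 12 measured and all with means above 0, had medians of 0.18, 0.56 and 0.54, and sums of 500669 to 840807 in Cy3 and 769955 to 1113110 in Cy5. Over all 23554 genes 10743 had means above 0. These markers were bright, with mean log2 intensities from 13.67 for Slc2a2 to 17.04 for Afp. The part of these markers in the members' ratios was not tested. The endothelial markers share 8 genes with the haemogenic endothelium list, so these lists are not separate measures.

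**Figure D4:**
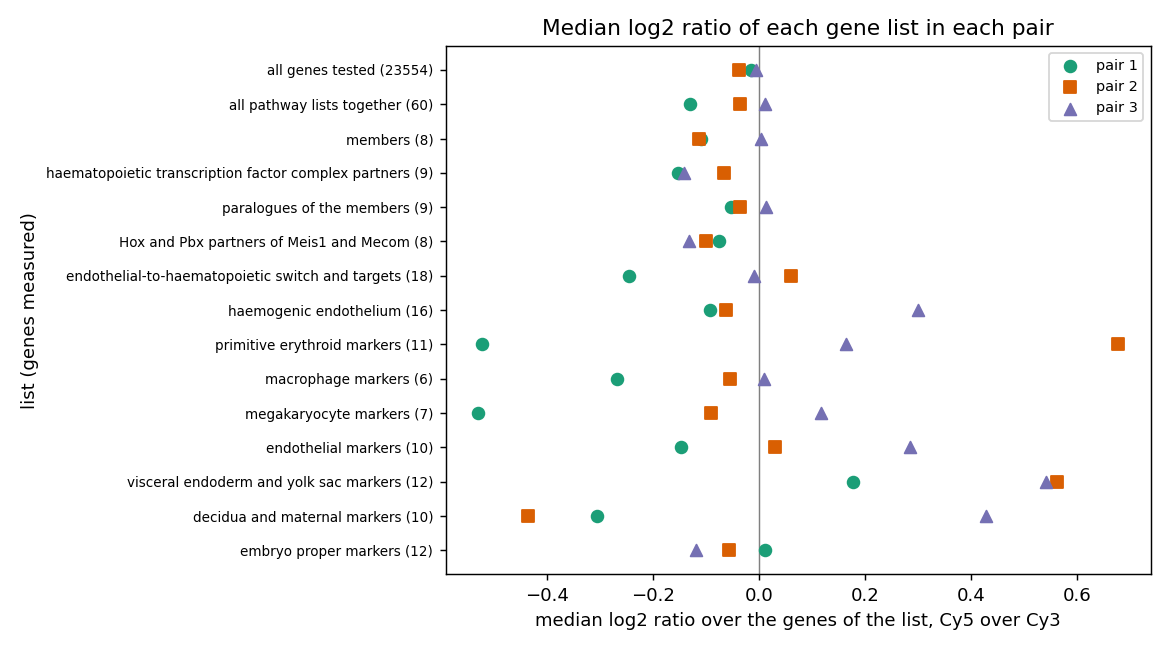
Median log2 ratio of Cy5 over Cy3 over the measured genes of each list (number in brackets), 1 point per pair. Primitive erythroid markers run from -0.52 in pair 1 to 0.68 in pair 2, while the members lie between -0.11 and 0.00.

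Processing moved the members less than leaving out a pair did for Gata2, Lyl1 and Mecom. Gata2 stayed above 0, Cbfa2t3 stayed above 0 and Myb stayed below 0 under each of their 11 alternatives. The others changed sign under at least 1.

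**Figure D5:**
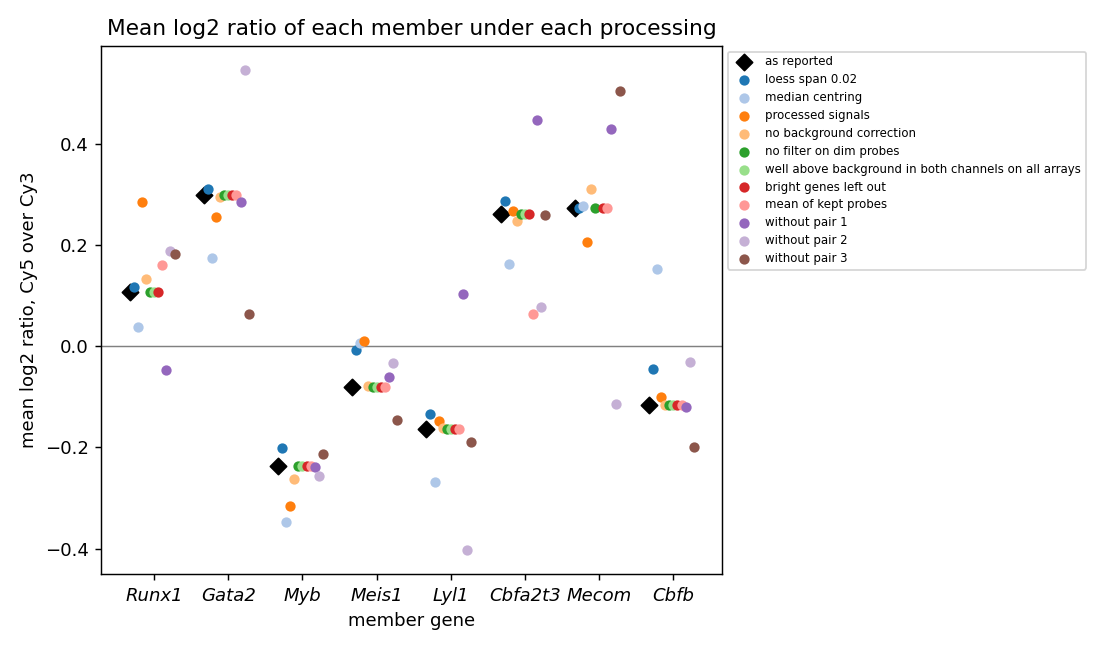
Mean log2 ratio of Cy5 over Cy3 of each member as reported (black diamond) and under each alternative processing or with 1 pair left out (circles). Myb stays between -0.35 and -0.20, and Mecom spreads from -0.11 to 0.50.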

How the data were processed

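Each of 3 Agilent arrays held wild-type RNA in Cy3 and Brpf1-deficient RNA in Cy5, per the labels. Feature Extraction 10.7.3.1 made the scanner files of an array design annotated on mm9, per the file headers. The deposited intensity values give every spot's median signal and its median local background, beside the scanner software's processed signals. The authors' deposited table gives a log2 ratio and an unadjusted and an adjusted p-value for each of 40000 probes. The submitters' processing notes name limma, with settings not stated in these sources. Across 39908 shared probes the deposited log2 ratio correlates at -0.802 with Cy5 over Cy3, so it was turned.

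Here the median signals were background-corrected with normexp (offset 50) and loess-normalized within each array (span 0.3), controls and outliers having weight 0. Spots of 1 probe were averaged without outliers. A probe was kept if at least 1 channel was well above background on 2 or more arrays. This left 31598 of 55681 probes, and the brightest probe stood for each of 23554 genes. RefSeq accessions gave names through the GRCm38.p6 gene table, which matched 27656 of 29123 such probes. Names of that table were held by 15380 of the 23554 genes. The others kept their array identifier, so 1 gene can count more than once in the shares of all genes. The mean ratio was tested against 0 with limma 3.58.1 in R 4.3.3 (intercept only, two-sided, Benjamini-Hochberg over all 23554 genes, threshold 0.05), after the fit had been tested on simulated data.

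The members and gene lists were chosen with earlier results of these data known. The rule for named genes took all members and Brpf1, the 3 smallest p-values of each pathway list, the 2 pathway genes nearest each member in the 3 ratios, and of marker lists those needed to say which were at or below background. The 4 embryo markers named as detected, Hbb-bh1, Hbb-y, Clec1b, Prl8a2 and Igfbp1 were chosen after their values were seen. Alternatives covered the span, median centring, processed signals, background correction, the filter, the bright genes, the probe rule and each pair left out. With 3 arrays, their number limits the precision.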

Additional observations from a re-analysis of the deposited data

How the results depend on the processing

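No member passed the threshold under any of the 11 alternatives (10 for Mecom), all planned. Of the members' values 81 kept their direction and 6 changed sign. With 1 pair left out, the ranges that crossed 0 were -0.046 to 0.19 for Runx1 (negative without pair 1), -0.40 to 0.10 for Lyl1 (positive without pair 1) and -0.11 to 0.50 for Mecom (negative without pair 2). Meis1 was 0.0057 with median centring and 0.0095 with processed signals, and Cbfb was 0.15 with median centring. The members' median, 0.014, was 0.095 with median centring, 0.11 with processed signals and -0.080 over the 7 members well above background in both channels on all arrays, where Mecom dropped out. That median was also below 0 with the mean of kept probes (-0.0087), without pair 2 (-0.033) and without pair 3 (-0.041). Among the other named genes 6 values lost the call, all of Brpf1, and 13 changed sign. The alternative with the bright genes left out is not in these counts, and Brpf1 lost the call there too. With median centring these were Sox17 (-0.089), Sox7 (-0.080), Eng (-0.024) and Gata1 (-0.033), and with the mean of kept probes Hoxa9 (0.054) and Cd44 (-0.0070). Leaving out a pair gave -0.18 to 0.19 for Sox17, -0.10 to 0.19 for Sox7, -0.076 to 0.23 for Eng, -0.32 to 0.042 for Itga2b, -0.31 to 0.039 for Hoxa9, -0.11 to 0.44 for Cd44 and -0.20 to 0.18 for Gata1. The count of calls over all genes, 326, was 651 with median centring, 201 with the mean of kept probes, and 0 with a loess span of 0.02, with processed signals, with the 544 genes above a mean log2 intensity of 17 left out, and after omission of any 1 pair (0 to 0). At an unadjusted p below 0.05 limma gave 2145 to 3832 genes in those fits. The cause of these differences was not tested. The reported fit is itself paired, since each ratio is taken within an array. Precision is limited by 3 arrays and, for Mecom, Ptprc, Gfi1 and Prdm16, by signal near background. With median centring Tcf3 (-0.010), Tie1 (0.13), Pbx2 (-0.12) and Meis3 (-0.32) moved by a large factor without changing sign, and Ptprc (-0.67) and Gfi1 (0.35) did so with processed signals.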
